A study of Drosophila melanogaster with 6 samples.

Results

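Near all-or-none genes are those whose reads were present in every library of one genotype and almost missing from every library of the other. Among 17471 genes counted in fly olfactory projection neurons, 33 met that description. Levels are given as CPM, a gene's count divided by the total of all gene counts in its library and multiplied by 1000000. A gene was taken when its lowest library in one genotype reached 1 CPM and was at least 5 times the highest library of the other genotype. In 19 genes the libraries labelled acj6 mutant were the higher ones, and in 14 the wild type. Another 3 genes met the rule with the mutant-labelled libraries higher and were left out because their symbols mark them as long noncoding or antisense RNAs. The rule uses the same contrast that the values below describe, so these values are descriptions and no test is attached to them.

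The cells were labelled adPN, projection neurons of the anterodorsal lineage. Their dendrites take up odour input in the antennal lobe of the fly brain, and the animals were at 36 to 40 h after puparium formation. The titles of 3 libraries name acj66, with a genotype given as acj6 mutant, and 3 further libraries came from wild-type flies. All 6 were full-length cDNA libraries made by a modified SMART-seq2 method from total RNA. The labels give neither the driver line, the lesion of the acj6 allele, the sex of the animals nor how many were pooled. The product of acj6 is a transcription factor of the POU class that these neurons make. The series title sets the question of how it directs dendrite targeting through cell-surface genes.

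acj6 itself was at 271, 240 and 225 CPM in the mutant-labelled libraries, against 148, 145 and 162 CPM in the wild type. Its reads were thus counted in every library and were higher in those labelled mutant. Since the lesion is not given, gene-level counts cannot serve as a check of the genotype. Gene totals ran from 30980945 to 38279909 counts in mutant-labelled and from 24467328 to 34547549 in wild-type libraries, so 1 CPM stands for 24.5 to 38.3 counts. Reads of the membrane-tagged GFP transgene were at 4043 to 4517 CPM in mutant-labelled and 3126 to 4230 CPM in wild-type libraries. The neuronal genes elav, nSyb and brp and the adPN homeobox gene C15 were present in all 6 libraries, C15 at 142 to 174 CPM in mutant-labelled and 140 to 198 CPM in wild-type libraries. Alignments left uncounted as not unique equalled 219% to 295% of the gene counts in mutant-labelled libraries and 321% to 416% in the wild type. Some marker lists also differed in level. The 9 markers of adPNs and neurons summed to 9238 to 9461 CPM in mutant-labelled and 6567 to 7028 CPM in wild-type libraries. Besides acj6, edgeR, DESeq2 and limma-voom called kn (1155 to 1403 CPM in mutant-labelled and 415 to 498 CPM in wild-type libraries) and brp (5590 to 5855 CPM in mutant-labelled and 3756 to 4035 CPM in wild-type libraries) higher. On the same list elav was lower, at 225 to 260 CPM in mutant-labelled and 266 to 307 CPM in wild-type libraries. So was nSyb, at 1213 to 1329 CPM in mutant-labelled and 1386 to 1555 CPM in wild-type libraries. None of these tools called elav or nSyb, and the list held markers in both directions. The 8 glial markers summed to 480 to 507 CPM in mutant-labelled and 644 to 720 CPM in wild-type libraries, and 12 markers of other brain neurons to 297 to 378 CPM in mutant-labelled and 446 to 588 CPM in wild-type libraries. The only glial marker called was nrv2, at 295 to 315 CPM in mutant-labelled and 407 to 472 CPM in wild-type libraries. wrapper did not overlap either, at 9.67 to 17.5 CPM in mutant-labelled and 20.3 to 21.8 CPM in wild-type libraries. The glial markers repo, alrm, Gs2, moody, Eaat1 and bdl overlapped. Among markers of other brain neurons edgeR and limma-voom called only DAT, given below, and DESeq2 called DAT and Vmat. Vmat was at 40.7 to 64.5 CPM in mutant-labelled and 80.1 to 193 CPM in wild-type libraries. VGlut did not overlap either, at 29.9 to 31.0 CPM in mutant-labelled and 36.7 to 75.3 CPM in wild-type libraries, without a call. Gad1, SerT, Tbh, Tdc2 and toy overlapped. The dosage compensation RNA roX1 was at 2727 to 3201 CPM in mutant-labelled and 1435 to 1677 CPM in wild-type libraries, while roX2 overlapped, at 416 to 531 CPM in mutant-labelled and 455 to 589 CPM in wild-type libraries. The part of these differences in the values below was not tested.

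Several of the 33 genes belong to the machinery that builds cuticle. Insect cuticle is secreted by epidermis and trachea and consists of chitin fibres bound by structural proteins. Its genes are switched on and off in waves under the steroid hormone ecdysone, and each moult dissolves the old layer with chitinases while a new one is laid down. Neurons do not make cuticle. In bulk samples such as these, fewer cells of a type and less RNA per cell cannot be told apart.

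Most of the 33 genes were of low abundance, the exceptions being Cht7 and CG1850, whose means lay near the middle of the expressed genes. In their higher genotype the mean was a median of 4.16 CPM over the 19 genes of the mutant-labelled side and 5.32 CPM over the 14 of the wild-type side, while the 7583 genes at 1 CPM or more in all libraries of a genotype had a median of 36.6 CPM over the 6 libraries. Only Cht7 and CG1850 stayed above 10 CPM in every library of their higher genotype. The lowest library on the high side held 35 counts among the mutant-higher genes and 28 among the wild-type-higher ones. On the low side the genes had at most 29 counts in a mutant-labelled library (wild-type-higher genes) and at most 82 in a wild-type library (mutant-higher genes). The 19 genes made up 0.251% and the 14 genes 0.185% of those 7583.

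**Figure D1:**
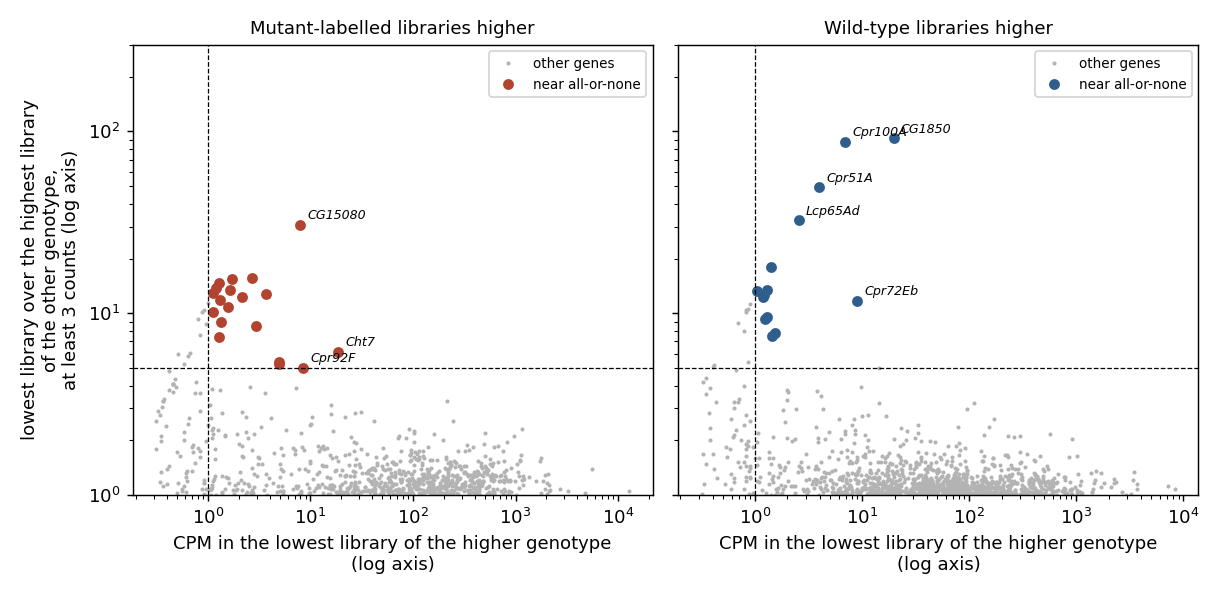
Each point is a gene, with the CPM of its lowest library in the higher genotype on the x axis (log) and that value divided by the highest library of the other genotype on the y axis (log), a highest library with fewer than 3 counts being set to 3 counts; dashed lines mark 1 CPM and 5 times. The chosen genes, 19 on the left and 14 on the right, sit mostly at the low end of the levels, and genes of high abundance lie well under the 5-times line.

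Among the genes higher in the mutant-labelled libraries, 3 belong to cuticle and chitin. Cht7 (FBgn0035398), a chitinase, was at 54.4, 38.7 and 18.7 CPM in mutant-labelled libraries and at 3.03, 0 and 2.08 CPM in the wild type. It was the most abundant gene of this side, with a 21.8-fold higher mean. Cpr92F (FBgn0038819), a chitin-binding cuticle protein, was at 13.3, 9.23 and 8.43 CPM in mutant-labelled libraries, against 0, 1.68 and 1.06 CPM in the wild type. Osi7 (FBgn0037414), of the insect-specific Osiris family expressed in cuticle-forming cells, was at 1.31, 11.3 and 1.57 CPM in mutant-labelled libraries and had no count in any wild-type library. With the 3 wild-type libraries together set to 3 counts, its mean was at least 136-fold higher, and 79.7% of its summed CPM came from mutant-labelled replicate 2. Cpr92F lay just inside the limit, its lowest mutant-labelled library being 5.02 times its highest wild-type one.

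The wild-type side held 4 cuticle proteins, and their reads were nearly or wholly missing from the mutant-labelled libraries. Cpr100A (FBgn0039805) had no count in the mutant-labelled libraries and was at 7.25, 33.0 and 6.87 CPM in the wild type. Lcp65Ad (FBgn0020641), from the larval cuticle protein cluster of arm 3L, also had no count in the mutant-labelled libraries, against 2.55, 29.3 and 7.52 CPM in the wild type. Against 3 counts over the mutant-labelled group these means were at least 559-fold and 467-fold lower in the mutant-labelled libraries. Cpr51A (FBgn0033942) was at 0, 0.032 and 0.080 CPM in mutant-labelled libraries and at 3.96, 25.4 and 6.87 CPM in the wild type. Cpr72Eb (FBgn0036618) was at 0.758, 0.032 and 0.053 CPM, against 8.91, 30.7 and 13.0 CPM in the wild type. In each of the 4, wild-type replicate 2 was the highest library, with 58.3% to 74.4% of the summed wild-type CPM.

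Cuticle genes were thus found on both sides, and different members of the family stood on each. Summed over Cht7, Cpr92F and Osi7, the level was 69.0, 59.2 and 28.7 CPM in mutant-labelled libraries and 3.03, 1.68 and 3.15 CPM in the wild type. Summed over the 4 cuticle proteins of the other side, it was 0.76, 0.06 and 0.13 CPM in mutant-labelled libraries, against 22.7, 118 and 34.2 CPM in the wild type. Cuticle protein genes made up 5 of the 33 genes (15.2%) and 13 of the 7583 genes at 1 CPM or more (0.17%). These 13 include the 5, and the other 8 did not meet the rule. Lists were chosen with earlier results of these data known, so these shares are descriptions.

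Neighbours in the same gene cluster had their own patterns. Cpr72Ea, the gene beside Cpr72Eb, was at 12.4, 15.6 and 3.66 CPM in mutant-labelled libraries and at 2.81, 0.405 and 0.490 CPM in the wild type, the opposite order of Cpr72Eb. Osi8, beside Osi7, was at 2.87, 0.097 and 0.747 CPM in mutant-labelled libraries and had no count in the wild type, while Osi6 on the other side had a count in mutant-labelled replicate 1 only. The genes flanking Lcp65Ad in its cluster were at or near 0 throughout, with at most 0.082 CPM in any library for the nearest 2 on each side. These neighbours were named after their values were seen.

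Across whole families the pattern differed from list to list. Of 130 cuticle protein genes, 27 had no count in any library and 31 passed edgeR's filter on low counts. Of these, edgeR's quasi-likelihood test called 1 higher (Cpr73D) and 6 lower at an adjusted p under 0.05, 4 of the 6 being the genes above. Those 4 are no independent evidence of the family's direction, since the rule chose them on the same contrast. DESeq2 called 3 higher and 8 lower, and limma-voom 1 higher and 0 lower (9 lower at an unadjusted p under 0.05). The share called over all 9229 genes tested was 3.07% higher and 1.33% lower in mutant-labelled libraries, and at an unadjusted p under 0.05 it was 9.47% higher and 7.14% lower. These are the shares beside which the counts of each list below stand, and genes chosen by the rule add to a list's count by their choice. The median log2 fold change was -0.56 over the 31, and -0.01 over all genes tested. Without the 5 chosen genes, the summed level of the cuticle proteins was 64.2, 80.6 and 89.3 CPM in mutant-labelled libraries and 49.9, 60.2 and 64.0 CPM in the wild type, which did not overlap. Without Cpr73D as well, it was 42.4, 56.3 and 44.5 CPM in mutant-labelled libraries and 42.9, 52.2 and 60.4 CPM in the wild type, which overlapped. Of 22 Osiris genes 7 were tested, with 1 called higher (Osi7) and 0 lower by edgeR, while 5 were higher and 0 lower at an unadjusted p under 0.05. DESeq2 called 2 higher and limma-voom 0, and neither called any lower. The median log2 fold change over these 7, Osi7 among them, was 3.33, with Osi24 the other way at -0.95. Without Osi7 the family summed to 16.7, 56.6 and 39.8 CPM in mutant-labelled and 6.06, 17.6 and 9.52 CPM in wild-type libraries. The groups overlapped only in that mutant-labelled replicate 1 (16.7 CPM) lay just under wild-type replicate 2 (17.6 CPM). Of 51 chitin enzymes and chitin-binding proteins 32 were tested and 0 were called by edgeR, with 3 higher and 1 lower at an unadjusted p under 0.05. DESeq2 called 1 higher and 0 lower, and limma-voom 0. Without Cht7 this list summed to 274, 413 and 298 CPM in mutant-labelled and 321, 386 and 318 CPM in wild-type libraries.

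**Figure D2:**
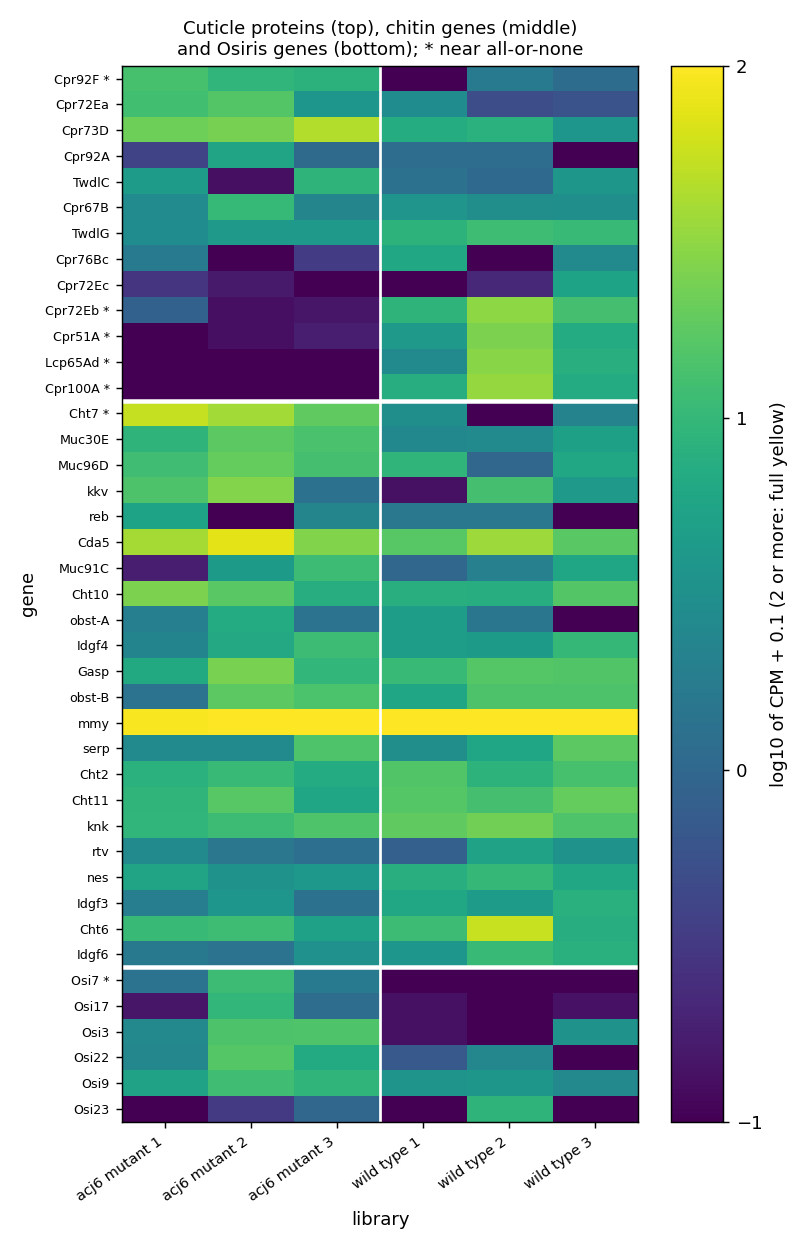
Colour gives log10 of CPM + 0.1 for the 41 cuticle protein, chitin and Osiris genes that reached 5 CPM in any library, in the mutant-labelled (left) and wild-type (right) libraries, ordered within each family by the log2 ratio of the group means; asterisks mark the near all-or-none genes. Cpr92F and Cht7 are brighter on the left, Osi7 is brightest in mutant-labelled replicate 2 and dark throughout the wild type, and Cpr72Eb, Cpr51A, Lcp65Ad and Cpr100A are brighter on the right.

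Markers of cuticle-forming cells were read beside these genes. Of the 10 genes on the list for trachea, epidermis and cuticle that could be matched, 10 were tested and 0 were called by edgeR, DESeq2 or limma-voom, with 1 higher and 1 lower at an unadjusted p under 0.05 in edgeR. Without Cht7, the other 9 summed to 39.2 to 65.3 CPM in mutant-labelled libraries and 55.8 to 79.9 CPM in the wild type. The epidermal transcription factor gene grh was at 3.27, 2.97 and 1.36 CPM in mutant-labelled libraries and 1.33, 1.10 and 0.695 CPM in the wild type. The tracheal transcription factor gene trh was at 0.157, 1.90 and 0.027 CPM in mutant-labelled libraries and 0.037, 0.550 and 3.11 CPM in the wild type. No defining marker of the list was at 0 in all libraries, and the part of such cells in the cuticle values was not tested.

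Genes of the mitotic machinery and kinesins, the motor proteins that move along or disassemble microtubules, made up 3 of the 19 genes of the mutant-labelled side. They are 3 of the 33 (9.1%), while 41 of the 7583 genes at 1 CPM or more are on the list of mitotic genes or that of kinesins (0.54%). Klp67A is on both lists, Klp59D on the kinesin list and gwl on the mitotic list. These 41 include the 3. Neither list was among the classes planned, and lists were chosen with earlier results of these data known. The shares are therefore descriptions, and levels were not matched. Klp67A (FBgn0004379), a kinesin that shortens spindle microtubules, was at 5.77, 4.97 and 7.71 CPM in mutant-labelled libraries and 0.924, 0.087 and 0 CPM in the wild type. Klp59D (FBgn0034827), a microtubule-depolymerizing kinesin, was at 21.0, 5.26 and 3.68 CPM, against 0.037, 0.289 and 0 CPM in the wild type. gwl (FBgn0260399), the Greatwall kinase that holds a phosphatase off during mitosis, was at 2.32, 2.13 and 3.76 CPM, against 0.148, 0.174 and 0 CPM in the wild type. Klp59D had 70.1% of its summed CPM in mutant-labelled replicate 1, whereas Klp67A and gwl were even across the 3 libraries. endos, which encodes the substrate of gwl in that pathway, was at 298 to 330 CPM in mutant-labelled and 338 to 363 CPM in wild-type libraries.

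The 45 other genes of the wider mitotic list summed to 794 to 821 CPM in mutant-labelled and 819 to 875 CPM in wild-type libraries, which overlapped. Of 39 tested, edgeR called 0 higher and 1 lower (Incenp, a subunit of the chromosomal passenger complex), and the median log2 fold change was -0.08. At an unadjusted p under 0.05, 3 were higher and 3 lower. DESeq2 called 3 higher (Klp67A, gwl and Klp10A) and 2 lower (BubR1 and Incenp), and limma-voom 0 higher and 1 lower (Incenp). Progenitor markers were low in both groups. Their sum was 10.2, 5.29 and 1.01 CPM in mutant-labelled libraries and 12.8, 3.82 and 7.48 CPM in the wild type, with wor at 0 in every library. Among 19 tested kinesins, edgeR called 2 higher, Klp59D and cos, a Hedgehog pathway scaffold, and 0 lower, with 5 higher and 3 lower at an unadjusted p under 0.05. DESeq2 called 5 higher (Khc-73, Klp10A, Klp59D, Klp67A and cos) and 3 lower (Khc, Kif19A and nod), and limma-voom 1 higher (cos) and 0 lower.

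Cyp18a1 (FBgn0010383, X chromosome), the cytochrome P450 that inactivates 20-hydroxyecdysone, was at 3.58, 2.71 and 3.84 CPM in mutant-labelled libraries and 0.037, 0.174 and 0 CPM in the wild type. The 3 mutant-labelled values lay close together, and the mean was 48.1-fold higher. The genes for ecdysteroid synthesis on the same list were low, and without Cyp18a1 the list summed to 15.2 to 25.1 CPM in mutant-labelled and 15.4 to 24.2 CPM in wild-type libraries. Most of that sum was Npc1a, a sterol transporter.

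Secreted enzymes and a secreted signalling inhibitor made up 4 genes of this side. Notum (FBgn0044028), which switches off Wnt ligands by removing their lipid, was at 3.29, 1.13 and 4.19 CPM in mutant-labelled libraries and 0, 0.087 and 0 CPM in the wild type. With 3 counts in the wild-type group in all, its ratio was 85.5, with a counting interval of 29.0 to 417. AdamTS-B (FBgn0029791, X chromosome), of a family of matrix metalloproteases, was at 1.33, 1.97 and 4.43 CPM, against 0.148, 0.029 and 0.082 CPM in the wild type. CG8170 (FBgn0033365) and CG7142 (FBgn0038595) carry synonyms of the serine protease series in RefSeq. CG8170 was at 1.28, 6.78 and 4.43 CPM in mutant-labelled libraries and 0.037, 0.058 and 0.041 CPM in the wild type. CG7142 was at 3.68, 3.23 and 2.96 CPM in mutant-labelled libraries and 0.148, 0.347 and 0.123 CPM in the wild type, the most even of these genes. Of 24 tested Wnt pathway genes edgeR called 2 higher, Notum and nkd, an intracellular inhibitor of the pathway (85.0, 72.1 and 59.8 CPM in mutant-labelled and 37.0, 43.1 and 41.6 CPM in wild-type libraries), and 0 lower. At an unadjusted p under 0.05, 4 were higher and 1 lower. DESeq2 called the same 2 higher, limma-voom called nkd and Wnt2 but not Notum, and both called 0 lower. The median log2 fold change of these 24 was 0.18.

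Other annotated genes of this side came from immunity, muscle and collagen modification. PGRP-SD (FBgn0035806), a secreted peptidoglycan recognition protein of the immune response, was at 1.12, 2.45 and 1.28 CPM in mutant-labelled libraries and 0.074, 0.058 and 0 CPM in the wild type. The 10 hemocyte markers were mixed. Hml was at 0.731, 0.452 and 0.641 CPM in mutant-labelled and 0.037, 0 and 0 CPM in wild-type libraries, and PPO1 at 18.4, 0.097 and 2.27 CPM in mutant-labelled and 0.074, 0.145 and 0.327 CPM in wild-type libraries. By contrast srp was at 0.157, 0.097 and 0.347 CPM in mutant-labelled and 1.96, 0.289 and 0.204 CPM in wild-type libraries, lz at 0.235, 0 and 0.027 CPM in mutant-labelled and 1.15, 0.232 and 0 CPM in wild-type libraries, and He at 0 throughout. The list summed to 3875 to 5358 CPM in mutant-labelled and 4825 to 5292 CPM in wild-type libraries, nearly all of it Pxn, and without Pxn to 58.5 to 81.6 CPM in mutant-labelled and 44.5 to 47.9 CPM in wild-type libraries. Most of that remainder was crq, which overlapped. It was at 29.3, 60.9 and 73.9 CPM in mutant-labelled and 37.1, 39.9 and 38.5 CPM in wild-type libraries. In mutant-labelled replicate 1, where crq was lowest, PPO1 made up 18.4 CPM of the remainder. Of 5 hemocyte markers tested, edgeR and limma-voom called 0 and DESeq2 1 higher (PPO1), with 2 higher and 0 lower at an unadjusted p under 0.05 in edgeR, and the part of such cells in the PGRP-SD value was not tested. Him (FBgn0030900, X chromosome), an inhibitor of the muscle differentiation factor Mef2, was at 1.52, 1.19 and 3.87 CPM in mutant-labelled libraries and 0, 0.058 and 0.041 CPM in the wild type, a ratio of 64.5 with a counting interval of 21.8 to 315. Muscle markers summed to 33.8 to 53.8 CPM in mutant-labelled and 24.5 to 33.6 CPM in wild-type libraries, ranges that nearly touched, and their part was not tested. Groups that do not overlap were common among single genes. With genes taken at 1 CPM or more on 5 libraries, mutant-labelled replicate 1 left aside, 2036 of 7747 had groups apart over all 6. Of the 10 muscle markers edgeR and limma-voom called 0 and DESeq2 1 (sls), with 2 higher and 0 lower at an unadjusted p under 0.05 in edgeR. CG31524 (FBgn0051524), of the prolyl 4-hydroxylase family, was at 2.80, 2.81 and 1.28 CPM in mutant-labelled libraries and 0, 0.174 and 0 CPM in the wild type. Its relative CG31371 was at 1.33, 1.29 and 0.907 CPM in mutant-labelled and 0.037, 0.087 and 0.041 CPM in wild-type libraries, short of the rule by its lowest library.

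The remaining 5 genes of the mutant-labelled side are given by their values, 4 of them having no name beyond their annotation number. CG15080 (FBgn0034391) was at 11.6, 12.6 and 7.95 CPM in mutant-labelled libraries and 0.259, 0.232 and 0 CPM in the wild type. Its lowest mutant-labelled library was 30.7 times its highest wild-type one, the largest such ratio on this side among the 18 genes with a wild-type count. dsx-c73A (FBgn0261799) was at 4.89, 9.33 and 5.42 CPM in mutant-labelled libraries and 0.444, 0.926 and 0.736 CPM in the wild type, the smallest difference of means on this side at 9.32-fold. CG32037 (FBgn0052037) was at 2.25, 1.71 and 3.26 CPM in mutant-labelled libraries and 0.111, 0.087 and 0.082 CPM in the wild type. The last 2 were uneven and highest in mutant-labelled replicate 1. CG30046 (FBgn0050046) was at 17.3, 1.65 and 5.28 CPM in mutant-labelled libraries and 0, 0.058 and 0.123 CPM in the wild type. CG13992 (FBgn0031756) was at 17.5, 4.20 and 1.57 CPM in mutant-labelled libraries and 0, 0.145 and 0.082 CPM in the wild type.

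**Figure D3:**
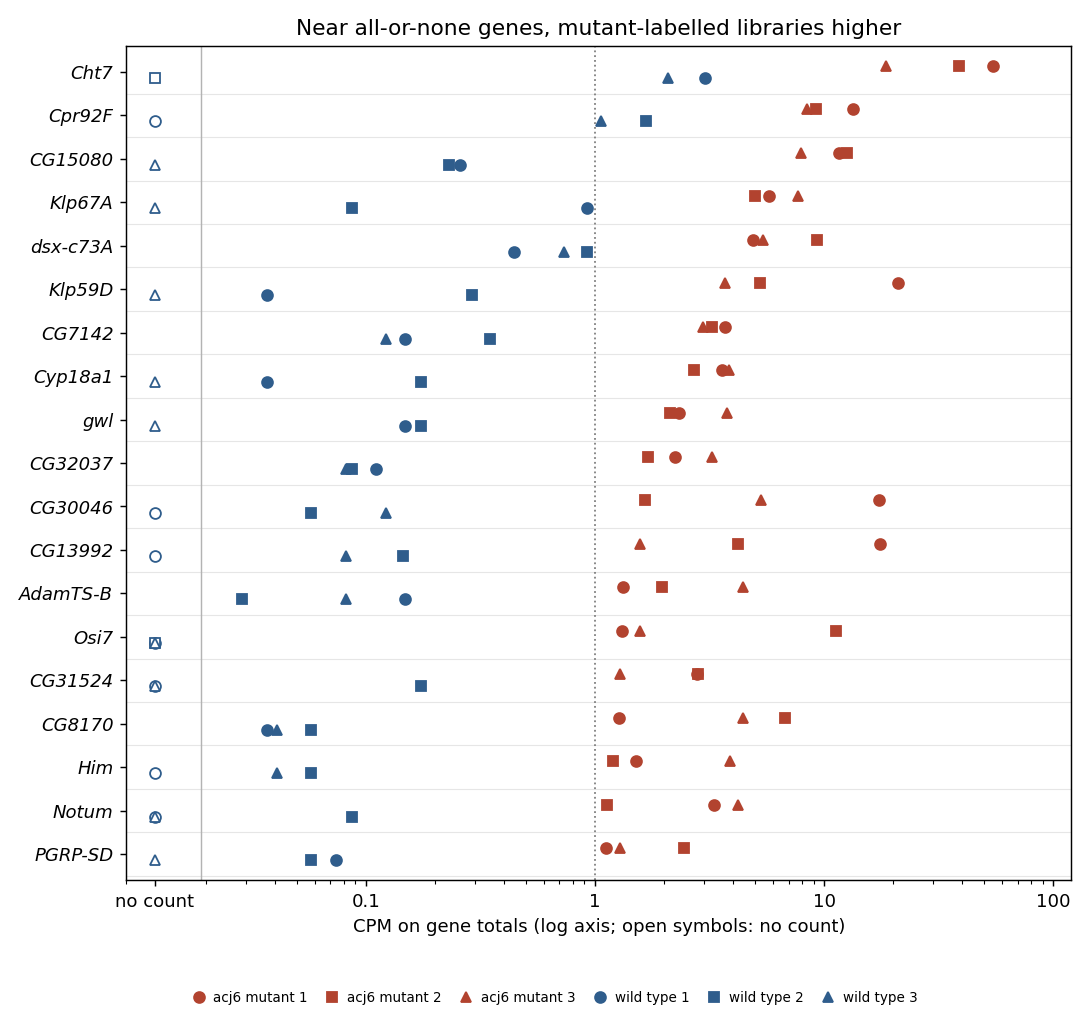
CPM (log axis) of the 19 genes higher in the mutant-labelled libraries, with red symbols for the 3 mutant-labelled and blue for the 3 wild-type libraries, open symbols at the left edge for no count, and a dotted line at 1 CPM. Genes run from Cht7 with the highest to PGRP-SD with the lowest mutant-labelled minimum, and the red points of Klp59D, CG30046, CG13992 and Osi7 are spread the widest.

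On the wild-type side the most abundant gene was CG1850 (FBgn0033154), which the tables leave without a name. It was at 0.131, 0.032 and 0.214 CPM in mutant-labelled libraries and at 25.7, 76.4 and 19.6 CPM in the wild type. The mean was 323-fold lower in the mutant-labelled libraries, and its lowest wild-type library was 91.7 times its highest mutant-labelled one, the largest such ratio among the 12 genes of this side with a mutant-labelled count. CG13722 (FBgn0035553) was at 0, 0.194 and 0.053 CPM, against 1.52, 23.9 and 5.76 CPM in the wild type. CG15213 (FBgn0040843) was at 0.026, 0.097 and 0.027 CPM, against 1.29, 5.96 and 3.27 CPM in the wild type. Like the 4 cuticle proteins, these 3 genes were highest in wild-type replicate 2. Together the 7 genes summed to 0.91, 0.39 and 0.43 CPM in mutant-labelled libraries and 51.2, 225 and 62.9 CPM in the wild type.

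The other 7 genes of the wild-type side were highest in replicate 1 or 3. unpg (FBgn0015561), a homeobox transcription factor gene, was at 0, 0.032 and 0.133 CPM in mutant-labelled libraries and 1.48, 1.24 and 5.80 CPM in the wild type. It was placed by hand with vvl and Lim1 on a list named for the lateral projection neuron lineage. Whether these genes mark the same lineage was not tested. vvl was at 3.40, 1.52 and 5.04 CPM in mutant-labelled and 2.77, 4.83 and 6.91 CPM in wild-type libraries, and Lim1 at 5.30, 1.97 and 3.42 CPM in mutant-labelled and 5.43, 8.54 and 10.7 CPM in wild-type libraries. The groups overlapped for vvl. For Lim1 they did not, but its highest mutant-labelled library (5.30 CPM) lay just under its lowest wild-type one (5.43 CPM). As given above, groups apart were common among all genes. Neither vvl nor Lim1 was called by edgeR, and the part of other projection neuron lineages in the unpg value was not tested. sinah (FBgn0259794), a relative of the ubiquitin ligase gene sina, was at 0.078, 0 and 0 CPM in mutant-labelled libraries and 1.04, 2.20 and 3.27 CPM in the wild type. Its lowest wild-type library, at 1.04 CPM, was the lowest such value of all 33 genes. With 3 counts in the mutant-labelled group, its ratio of wild-type to mutant-labelled counts was 76.1, with a counting interval of 25.6 to 372.

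The last 5 genes were low and mostly uneven. cocoon (FBgn0036496) was at 0.052, 0.032 and 0.027 CPM in mutant-labelled libraries and 1.40, 2.06 and 6.66 CPM in the wild type. CG34386 (FBgn0085415) was at 0.026, 0.194 and 0.053 CPM, against 14.0, 1.45 and 5.89 CPM in the wild type. CG5644 (FBgn0035948) was at 0, 0.129 and 0.133 CPM, against 5.80, 1.27 and 2.0 CPM in the wild type. For each of these 3, the highest wild-type library held 63.9% to 65.8% of the summed wild-type CPM. CG11570 (FBgn0036230) had a single count in the mutant-labelled group and was at 5.36, 1.19 and 1.63 CPM in the wild type, a ratio of 280 whose counting interval ran from 49.8 to 11118. CG9312 (FBgn0038179) had 2 counts in the mutant-labelled group and was at 1.40, 1.22 and 1.35 CPM in the wild type, the most even of the 33 genes on its high side.

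**Figure D4:**
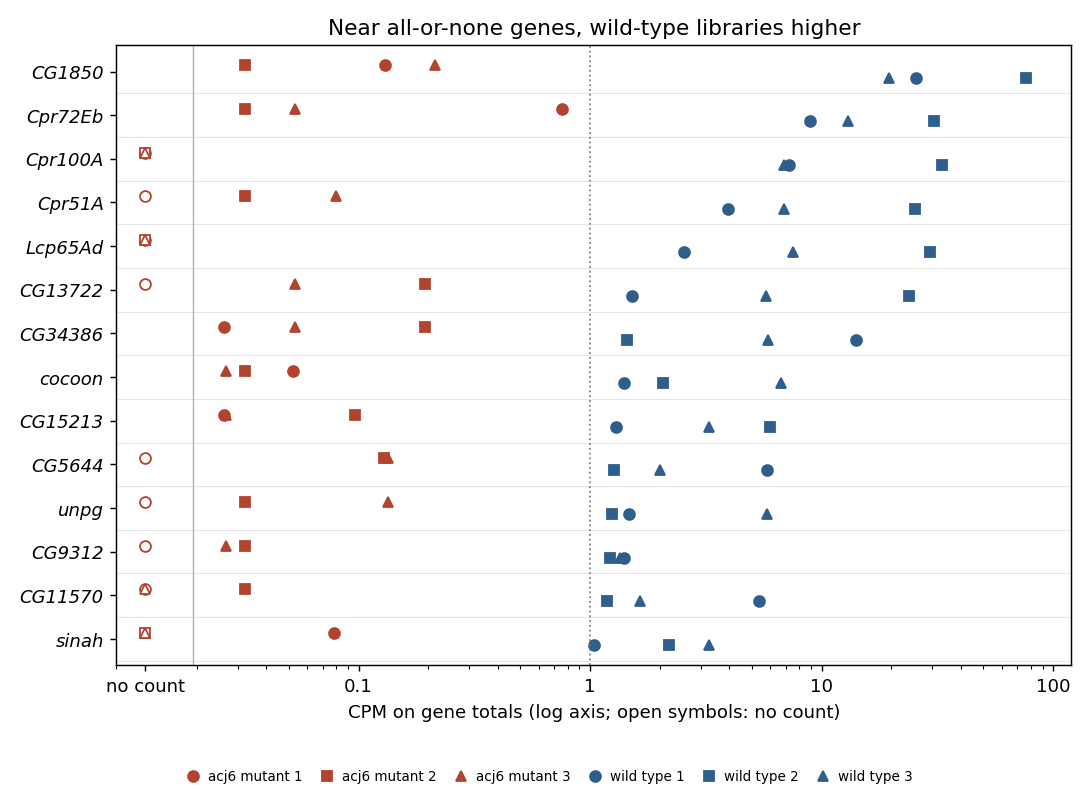
CPM (log axis) of the 14 genes higher in the wild type, with red symbols for the 3 mutant-labelled and blue for the 3 wild-type libraries, open symbols at the left edge for no count, and a dotted line at 1 CPM. In the upper rows (CG1850, the 4 cuticle proteins and CG13722) the blue square of replicate 2 lies to the right of the other wild-type libraries.

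The libraries of the higher genotype often differed among themselves. On the wild-type side the highest library was a median of 4.64 times the lowest (range 1.16 to 15.8), and 13 of the 14 genes had over 50% of their summed CPM in 1 library. Genes in the same range of mean CPM that were present at 1 CPM or more in every wild-type library had a median of 1.66 (3636 genes). On the mutant-labelled side the median was 2.2 (range 1.24 to 11.1), against 1.73 over 3497 genes in the same range of means. Spreads over 5 were found for 5 of the 19 genes against 6.09% of the comparison genes, and for 4 of the 14 against 3.91%. The comparison genes shared only the range of means, 1.32 to 40.6 CPM on the wild-type and 1.62 to 37.2 CPM on the mutant-labelled side. Levels within that range were not matched, and the part of level in these spreads was not tested. Wild-type replicate 2 was the highest library for 7 of the 14, while the 19 were divided 6, 6 and 7 over mutant-labelled replicates 1 to 3.

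The counting error of each ratio was set against the limit of 5 times. For 16 of the 33 genes (8 on each side) the lower 95% bound of the ratio between the lowest library of the higher genotype and the highest of the other was 5 or more. For the other 17 it lay below. The rule chose the genes on this same ratio, and the bounds cover counting error only, not the spread between libraries. These counts are therefore descriptions and no test of the limit. Closest above 5 were Cpr92F (5.02) and dsx-c73A (5.27) on the mutant-labelled side and CG34386 (7.47) and CG13722 (7.83) on the wild-type side. Closest below were ninaG (3.95) and CG17919 (3.86) on the mutant-labelled side, and DAT, the dopamine transporter gene (4.99), and sosie (3.93) on the wild-type side. DAT was at 2.77, 2.87 and 1.31 CPM in mutant-labelled and 19.5, 32.0 and 14.3 CPM in wild-type libraries, more abundant than 13 of the 14 genes that met the limit on that side by its lowest library.

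All 33 genes passed edgeR's filter on low counts. Of the 19, 13 were called higher, with a background of 3.07% of 9229 tested genes called higher. Of the 14, 11 were called lower, with a background of 1.33%. Since the rule used the same contrast, nothing is read from these counts. The 6 genes of the mutant-labelled side without a call were Cht7, Cpr92F, Klp67A, gwl, CG31524 and PGRP-SD, and the 3 of the wild-type side were CG5644, unpg and sinah. With limma-voom the calls were 1 of 19 and 0 of 14, although 19 and 14 of them had an unadjusted p under 0.05, and DESeq2 called 18 and 14.

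The rule was also applied to 5 libraries, with the sixth then read, for each library in turn. The 33 genes meet it in every round by construction and make up 198 of the 392 choices summed over the 6 rounds, so the following shares describe the rule and are no support for these genes. In 312 of the 392 (79.6%; 71.7% to 94.7% by round and direction) the sixth library lay on its own genotype's side of every library of the other genotype. Among all genes whose other 5 libraries did not overlap, chosen without any fold limit, the share was 71.3%, and among all genes at 1 CPM or more 48.8%. The 312 include all 198 choices that count by construction. The other 194 are those that did not meet the rule once the sixth library was read, and their share was lower than 79.6%. Neither part can therefore be set against the 71.3%. Leaving out mutant-labelled replicate 2 gave the most mutant-higher genes (52 against 19 with all libraries) and leaving out wild-type replicate 1 the most wild-type-higher genes (38 against 14). Leaving out wild-type replicate 2 gave 30 and 25.

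**Figure D5:**
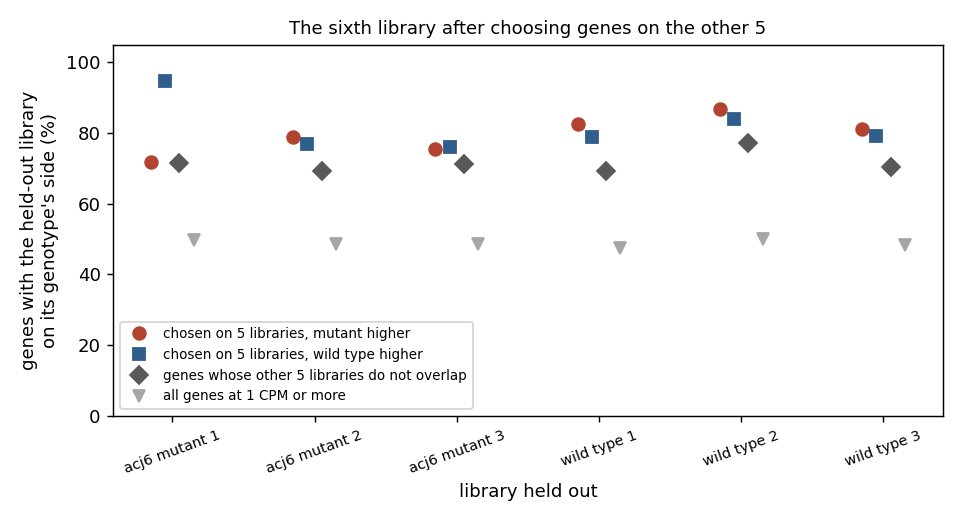
Percentage of genes whose held-out library lay on its own genotype's side, by the library held out, for genes chosen on the other 5 libraries (red circles, mutant higher; blue squares, wild type higher), for genes whose other 5 libraries do not overlap (dark diamonds) and for all genes at 1 CPM or more (light triangles). The chosen genes lie between 71.7% and 94.7%, the diamonds between 69.1% and 77.1%. These ranges cannot be set against each other. Of the 392 choices summed over the rounds, 198 meet the rule with every library and so lie on their own side by construction.

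Position and structure, which the rule did not use, are given as counts. Of the 33 genes, 14 (42.4%) lie on arm 3L, where 19.5% of genes at 1 CPM or more lie, 8 on 2R (24.2% against 20.3%), 7 on 3R (21.2% against 24.5%), 3 on X (9.1% against 17.2%) and 1 on 2L (3.0% against 17.4%). The 3 X-linked genes, Cyp18a1, AdamTS-B and Him, were all higher in the mutant-labelled libraries, and acj6 is itself X-linked. No 2 of the 33 were neighbours: none of the 132 nearest protein-coding genes, 2 on each side, was among them, and 4 of the 82 tested were called by edgeR, against 4.4% of all tested genes. Single-exon genes were 7 of 33 (21.2%, against 7.7%), and the median transcript length was 1858 bases (2690 on the mutant-labelled and 1414 on the wild-type side, against 2063). Exons overlapped those of another gene for 7 of 33 (21.2%, against 41.8%), by at most 7.8% of the gene's exon bases. These are Klp67A, AdamTS-B, CG8170, Notum, PGRP-SD, CG5644 and CG11570, and their counts are uncertain, since the strand setting of the counting is not given. dsx-c73A, CG7142, PGRP-SD and sinah lie within the bounds of another gene. Genes without a name other than an annotation number were 14 of 33 (42.4%, against 30.7%).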

How the data were processed

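Each deposited table holds raw counts of reads for every gene of 1 library, without normalization by the authors. HTSeq 0.11.2, STAR 2.5.4 and bcl2fastq 2.19.0.316 are listed in the submitters' processing notes, and a modified SMART-seq2 method in the labels' protocols. Genome build, annotation release and strand setting were not given in the sources used here. Coordinates are therefore left out. Groups and replicate numbers follow the sample titles. ERCC, transgene and summary entries stayed out of totals and tests.

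Counts were divided by each library's FBgn total (CPM). Symbols were found for 17242 of 17471 identifiers; arms, exons and transcript lengths came from Ensembl 115 models of BDGP6.54. Beside the selection, edgeR 4.0.16 (R 4.3.3; filterByExpr, TMM, glmQLFit and glmQLFTest on genotype) was fitted to all 9229 genes that passed the filter, two-sided, with Benjamini-Hochberg adjustment, and was tested on simulated data. DESeq2 1.42.0 and limma-voom (limma 3.58.1) were alternatives. Intervals are exact Clopper-Pearson at 95% and cover counting error only, since the reads carry no molecular identifiers; so do floors, set at 3 counts. The members and lists were chosen with earlier results of these data known. Genes were named by level, ratio, class and closeness to the limit, and the remaining members after their values were seen. No sequence was used here, so a planned promoter motif search was not run. Nothing in the labels says that libraries came from separate animals, so p-values measure the spread between libraries, which may be technical.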

Additional observations from a re-analysis of the deposited data

How the results depend on the processing

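With the mutant-labelled libraries higher, 19 genes met the rule; a minimum of 0.5, 2 or 5 CPM gave 29, 9 or 3, at least 10 times gave 12, and leaving out each library in turn gave 30 to 52. With the wild type higher, 14 met it; a minimum of 2 or 5 CPM gave 5 or 3, at least 3 times gave 23, and leaving out each library gave 19 to 38. A rule over fewer libraries is looser by its construction, and all 33 genes meet it in every such round. TMM or DESeq2 scaling changed either count by at most 1. DESeq2 called 627 genes higher and 313 lower in mutant-labelled libraries, against 283 and 123 by edgeR, and leaving out each library gave 109 to 188 and 34 to 64. Of the 33, edgeR's calls (13 and 11) numbered 2 and 3 with 5 CPM required in 3 libraries, by its construction, 1 and 0 with limma-voom (cause not tested), and 1 to 4 and 4 to 8 with each library left out. Replicate numbers did not pair the libraries (correlations of deviations 0.016, -0.001 and 0.047 for numbers 1 to 3); with the replicate block 215 genes were called higher and 78 lower, and 5 and 7 of the 33. No fold of the 33 changed direction in 402 refits, a direction that the choice of these genes fixes. The share of held-out libraries on their own side was 75.7% at 3 times and 86.5% at 10 times. Choices that meet the limit with all libraries count by construction, 300 of 667 at 3 times and 132 of 237 at 10 times. These shares therefore describe the rule and are no support for its genes. Depth limits the low side, where 3 counts in a library stand for 0.0784 to 0.123 CPM.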
